A study of Mus musculus with 2 samples.

Results

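The cells described here are mesenchymal cells of the newborn mouse molar germ. They hold transcripts of any of Smoc2, Gldn, Foxf2 and Frzb, genes used here as markers of the apical dental papilla. They came from 2 single-cell libraries of the tooth germ of the lower first molar, prepared on the BD Rhapsody microwell system, which tags each captured transcript with a unique molecular identifier (UMI). The deletion library was from K14cre;Edar fl/fl newborns, in which Cre driven by the keratin 14 promoter, active in epithelium, acts on the floxed Edar gene. The control library was from Edar fl/fl newborns, which carry the same floxed alleles. Both were C57BL/6, and the labels do not state how many animals or litters went into either library. There is 1 library per genotype, so no difference between the genotypes has a replicate check, none is tested, and all intervals cover counting error only.

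A cell entered with 500 or more genes detected, no more than 20% mitochondrial UMIs, at most 1 UMI in all of Epcam, Cdh1, Pecam1, Cdh5, Ptprc and Tyrobp, and at least 3 UMIs in all of Smoc2, Gldn, Foxf2 and Frzb. It also had at most 1 UMI of the pre-odontoblast genes Smpd3, Panx3, Notum and Lrrc15, at most 1 of Rspo4 and Vit, and fewer than 20 UMIs per 10000 of Dspp with Dmp1 and of Ibsp with Mmp13. This rule found 2686 of the 28918 cells that passed the filters on genes and mitochondrial UMIs, 1683 of 15487 in the deletion library and 1003 of 13431 in the control library. These are called the rule cells. Since measured values chose them, the levels of the rule genes are a description.

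The dental papilla is the neural crest mesenchyme enclosed by the enamel organ, and its outer cells become odontoblasts while the rest forms the pulp. Its apical end lies by the cervical loop and the forming root, where mesenchyme grows beside epithelium that sends Hedgehog, Wnt, BMP and FGF signals, and it adjoins the dental follicle, the sheath that later gives the periodontal ligament, cementum and alveolar bone cells. Edar is the receptor for ectodysplasin in epithelial appendages and acts through NF-kB. Smoc2 encodes a secreted calcium-binding matrix protein, Gldn the adhesion protein gliomedin, Foxf2 a forkhead factor and Frzb a secreted Wnt-binding antagonist.

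The promoters of 3 of the marker genes, and of Dkk1 and Tnfaip6, both past 2-fold between the libraries, are shown as the reference sequence behind the names. Each runs from 250 bases before to 50 bases after the RefSeq start on the build GRCm38.p6, 5′ to 3′ on the strand of the gene. They lie at chr9:54286236-54286535 on the plus strand for Gldn, chr13:31625566-31625865 plus for Foxf2, chr2:80447347-80447646 minus for Frzb, chr19:30549447-30549746 minus for Dkk1 and chr2:52037863-52038162 plus for Tnfaip6. The promoter table held 6 of the 8 genes looked up. Capitals mark matches, on either strand and with no overlaps, to the GC box (GGGCGG), the TATA box (TATAAA), the AP-1 motif (TGANTCA), the TCF/LEF motif (CTTTGA) or the forkhead motif (TGTTTAC).
Gldn: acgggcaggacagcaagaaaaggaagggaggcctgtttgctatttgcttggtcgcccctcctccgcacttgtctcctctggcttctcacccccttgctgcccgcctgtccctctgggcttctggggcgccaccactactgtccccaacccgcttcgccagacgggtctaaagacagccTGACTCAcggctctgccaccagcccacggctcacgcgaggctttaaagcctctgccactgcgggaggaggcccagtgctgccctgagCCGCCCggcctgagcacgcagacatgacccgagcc
Foxf2: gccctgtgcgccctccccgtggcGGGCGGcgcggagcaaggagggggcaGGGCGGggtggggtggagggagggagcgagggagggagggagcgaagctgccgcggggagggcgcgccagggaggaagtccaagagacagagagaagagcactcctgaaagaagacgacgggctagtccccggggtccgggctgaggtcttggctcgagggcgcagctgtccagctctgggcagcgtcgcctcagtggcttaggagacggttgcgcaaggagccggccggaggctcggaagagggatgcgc
Frzb: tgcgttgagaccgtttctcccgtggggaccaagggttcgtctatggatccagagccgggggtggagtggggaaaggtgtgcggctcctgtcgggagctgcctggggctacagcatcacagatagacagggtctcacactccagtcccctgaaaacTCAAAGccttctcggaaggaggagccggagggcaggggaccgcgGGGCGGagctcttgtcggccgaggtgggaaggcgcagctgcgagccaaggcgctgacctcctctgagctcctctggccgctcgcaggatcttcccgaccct
Dkk1: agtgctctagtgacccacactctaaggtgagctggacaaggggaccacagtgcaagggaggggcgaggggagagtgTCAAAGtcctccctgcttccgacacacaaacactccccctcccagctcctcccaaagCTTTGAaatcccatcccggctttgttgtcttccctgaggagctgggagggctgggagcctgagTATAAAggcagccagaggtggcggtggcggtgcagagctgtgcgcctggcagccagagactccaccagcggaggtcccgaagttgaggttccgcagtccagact
Tnfaip6: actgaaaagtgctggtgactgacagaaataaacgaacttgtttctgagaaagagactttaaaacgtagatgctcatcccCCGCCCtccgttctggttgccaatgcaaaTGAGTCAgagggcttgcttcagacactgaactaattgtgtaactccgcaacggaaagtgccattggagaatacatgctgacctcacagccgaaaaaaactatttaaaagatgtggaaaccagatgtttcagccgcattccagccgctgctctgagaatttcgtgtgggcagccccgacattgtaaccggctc
The GC box, held by 35.7% of 32851 promoters of this length, matched in all but the Dkk1 window, with a pair of matches in Foxf2. The AP-1 motif, held by 7.81%, matched in Gldn and Tnfaip6. The TCF/LEF motif, held by 16.00% of promoters, matched once in Frzb and on each strand in Dkk1, which also held the only TATA box of these 5 windows, a motif present in 13.6%. No window shown held the forkhead motif, which 3.65% of promoters hold. The GC content was 65% for Gldn, 71.3% for Foxf2, 64.7% for Frzb, 60.7% for Dkk1 and 47% for Tnfaip6. A match describes these letters only.

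The deletion library held 62158879 UMIs on 16029 barcodes and the control library 73375441 UMIs on 13990 barcodes. The median rule cell had 3005 UMIs, 1515 genes and 6.30% mitochondrial UMIs in deletion, and 3492 UMIs, 1682 genes and 6.99% mitochondrial UMIs in control. The libraries shared 4 barcodes, 0 of them rule cells. Cells with Xist and no Y-linked UMI made up 30.4% of deletion and 18.9% of control rule cells, and cells with Y-linked UMIs and no Xist made up 25.6% of deletion and 39.3% of control rule cells, so both libraries hold cells of both sexes, in different proportions. Levels are given as CPM, the UMIs of a gene over all UMIs of the summed cells on the usual CPM scale. Edar had 28 UMIs in deletion and 89 UMIs in control epithelial cells, which were gated on Epcam and Cdh1 (deletion 10.6 CPM, control 18.3 CPM), and 13 UMIs in deletion and 12 UMIs in control cells of the rule (deletion 2.31 CPM, control 3.15 CPM). The sources used here do not say which exons are floxed, so these counts do not check the deletion.

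Of the rule genes, Smoc2 stood at 941 CPM in deletion and 873 CPM in control rule cells, Gldn at 198 CPM in deletion and 153 CPM in control, Foxf2 at 689.9 CPM in deletion and 750.3 CPM in control, and Frzb at 358 CPM in deletion and 583 CPM in control. Smoc2 was held by 70.1% of deletion and 71.0% of control rule cells, Gldn by 22.4% of deletion and 22.8% of control, Foxf2 by 80.0% of deletion and 80.8% of control, and Frzb by 59.4% of deletion and 69.3% of control. The markers seldom came all together: 4 of 4 were held by 8.79% of deletion and 13.0% of control rule cells, and only 1 of the 4 by 17.5% of deletion and 16.5% of control. At the threshold, 384 deletion and 158 control cells had exactly 3 marker UMIs, and 467 deletion and 216 control cells that met every other condition had 2. In cells that should lack these genes, 3 or more marker UMIs occurred in 3.77% of deletion and 1.85% of control epithelial cells (median UMIs: deletion 4157, control 5277). The share was 2.27% of deletion and 1.09% of control endothelial cells (deletion 3189, control 3277 UMIs), and 1.78% of deletion and 1.58% of control leukocytes (deletion 5806, control 7427 UMIs).

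The rule cells expressed the transcription factors of dental mesenchyme. Msx1 was at 291 CPM in deletion and 335 CPM in control, Pax9 at 239 CPM in deletion and 244 CPM in control, Barx1 at 221 CPM in deletion and 291 CPM in control, Lhx6 at 183 CPM in deletion and 256 CPM in control, Lhx8 at 144 CPM in deletion and 129.6 CPM in control and Twist1 at 793 CPM in deletion and 695 CPM in control. Among genes of the pre-odontoblast cells, Crym, a thyroid hormone-binding protein, had 2 UMIs in deletion and 11 UMIs in control cells of the rule, against 301 UMIs in deletion and 226 UMIs in control cells of the pre-odontoblast gate. Fgf3, a papilla signal to the epithelium, had 3 UMIs in deletion and 2 UMIs in control cells of the rule, against 164 UMIs in deletion and 157 UMIs in control cells of the pre-odontoblast gate. The pre-odontoblast gate holds cells with at least 3 UMIs of Smpd3, Panx3, Notum and Lrrc15 and at most 1 of the 4 markers. The 9 measured pre-odontoblast markers, those 4 limited by the rule among them, all had UMIs in the rule cells and summed to 360 CPM in deletion and 367 CPM in control.

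Markers of other cell types were summed in the rule cells. The 12 epithelial markers summed to 275 CPM in deletion and 231 CPM in control rule cells (11 of 12 with a UMI in each), the 10 endothelial markers to 61.0 CPM in deletion and 61.7 CPM in control, and the 11 leukocyte markers to 39.5 CPM in deletion and 34.6 CPM in control. The 10 mural markers summed to 287 CPM in deletion and 372 CPM in control, and the 8 glial markers to 46.4 CPM in deletion and 35.7 CPM in control. The 10 osteoblast markers summed to 846 CPM in deletion and 821 CPM in control, with 5 of them at 50 CPM or more in each. The 4 markers of the Rspo4 and Vit mesenchyme summed to 531 CPM in deletion and 503 CPM in control rule cells. The 15 dental follicle genes summed to 3964 CPM in deletion and 3751 CPM in control rule cells. In mesenchymal cells outside the rule these 15 summed to 2146 CPM in deletion and 1786 CPM in control. The same 12 epithelial markers summed to 72.3 CPM in deletion and 117 CPM in control endothelial cells and to 49.4 CPM in deletion and 61.2 CPM in control leukocytes, below their sums in the rule cells. They were above them in mesenchymal cells outside the rule (deletion 915, control 1182 CPM) and in the pre-odontoblast gate (deletion 435, control 533 CPM). In the Rspo4 and Vit gate (deletion 167, control 182 CPM) and the follicle gate (deletion 39.6, control 68.7 CPM), both used further on, they were below.

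Against all other mesenchymal cells of the same library, the genes with the highest ratios, apart from the markers themselves, were Epha3, Alcam, Col8a1, Tfap2b, Igf1, Igfbp3 and Fst. Epha3, a receptor for ephrin-A ligands, was at 243 CPM in deletion and 328 CPM in control cells of the rule, against 47.6 CPM in deletion and 36.4 CPM in control cells outside it. Alcam, an immunoglobulin-family adhesion protein, was at 363 CPM in deletion and 379.7 CPM in control cells of the rule, against 85.7 CPM in deletion and 52.9 CPM in control cells outside it. Foxq1, Pappa2, Sostdc1, Lhx6 and Aldh1a3 were the next in order, and the last of them was 3.13-fold higher in rule cells than in the others of the deletion library, the smaller of its ratios. The choice of cells by 4 genes also chose genes that go with them, so these ratios are a description.

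The rule cells were not uniform. Igfbp5, a secreted protein that binds insulin-like growth factors, was undetected in 583 deletion and 421 control rule cells and abundant in most others. A division at 10 Igfbp5 UMIs per 10000, chosen after the values were seen, put 757 of 1683 deletion cells (45.0%) and 512 of 1003 control cells (51.0%) below it. The sides of the division are called ranges here, and whether they are separate cell types was not tested. Near the cut, 156 deletion (9.27%) and 95 control cells (9.47%) lay between 5 and 20 per 10000. Gldn was held by 47.8% of deletion and 42.6% of control Igfbp5-low cells, and by 1.62% of deletion and 2.24% of control Igfbp5-high cells. Bmp3, a BMP family ligand used here as a follicle marker, was held by 8.72% of deletion and 5.86% of control Igfbp5-low cells, and by 63.3% of deletion and 61.3% of control Igfbp5-high cells. Over 6 follicle markers (Bmp3, Aldh1a2, Tnmd, Scara5, Postn and Lepr), the median Igfbp5-low cell had 4.84 UMIs per 10000 in deletion and 3.80 in control, and the median Igfbp5-high cell 20.2 in deletion and 17.4 in control. Foxf2 was held by 86.7% of deletion and 86.6% of control Igfbp5-high cells. With follicle markers and little Gldn in the Igfbp5-high cells, the name apical dental papilla is less sure for them than for the Igfbp5-low cells. Which of the Igfbp5-high cells are papilla or follicle cells was not tested. Since Gldn and Foxf2 are rule genes and the division followed the values, these shares are a description.

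**Figure D1:**
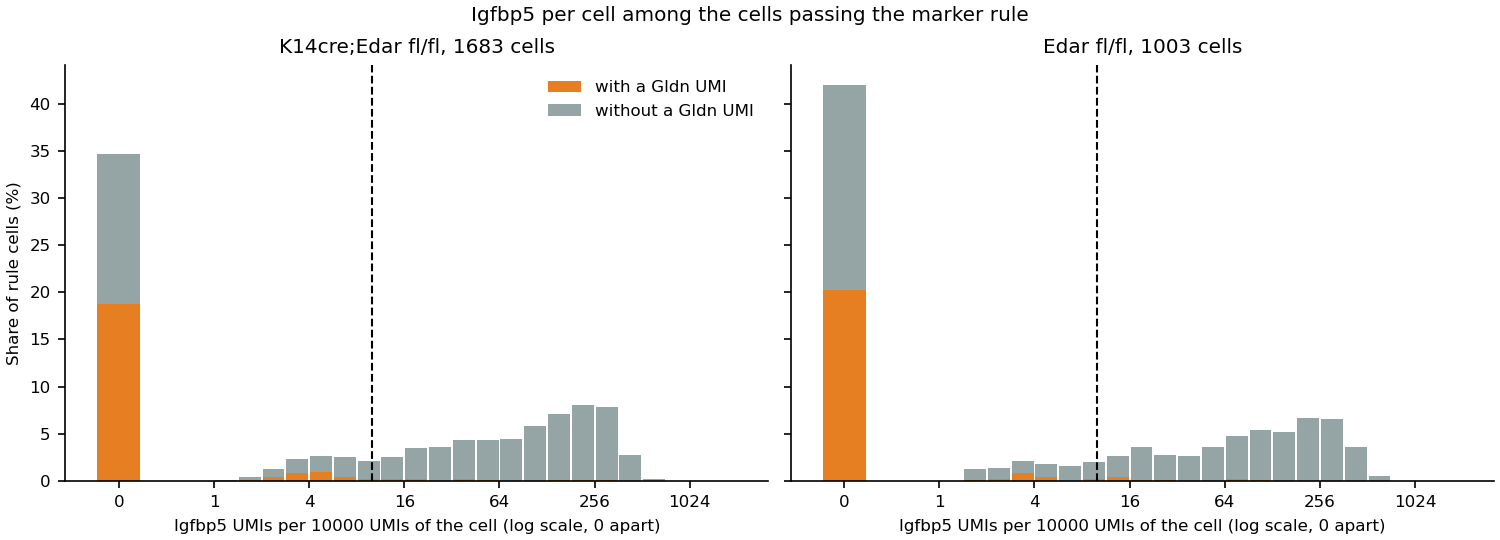
Share of rule cells (%, vertical axis) by Igfbp5 UMIs per 10000 UMIs of the cell (horizontal axis, log scale with 0 set apart) in the K14cre;Edar fl/fl deletion library (left) and the Edar fl/fl control library (right), divided into cells with and without a Gldn UMI. The dashed line stands at 10 per 10000, and cells with Gldn lie almost wholly to its left in both libraries.

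Tenomodulin (Tnmd), a tendon and ligament gene, and Lepr, the leptin receptor, followed Bmp3. Tnmd was at 232 CPM in deletion and 244 CPM in control cells of the Igfbp5-high range, against 50.2 CPM in deletion and 40.1 CPM in control cells of the Igfbp5-low range. Lepr was at 229.5 CPM in deletion and 266 CPM in control cells of the Igfbp5-high range, against 57.2 CPM in deletion and 57.6 CPM in control cells of the Igfbp5-low range. Both also occur in the follicle gate, cells with at least 3 UMIs of Bmp3, Aldh1a2, Tnmd and Scara5 and at most 1 of the 4 markers, where Lepr was at 163 CPM in deletion and 166 CPM in control. Igf1, the growth factor, was at 1199 CPM in deletion and 1286 CPM in control cells of the Igfbp5-high range, against 159 CPM in deletion and 151 CPM in control cells of the Igfbp5-low range. Igfbp5 itself was at 14196 CPM in deletion and 14774 CPM in control Igfbp5-high cells and at 10621 CPM in deletion and 12175 CPM in control follicle cells. Lhx6, a LIM homeobox gene of dental mesenchyme, was on the other side, at 306 CPM in deletion and 437 CPM in control cells of the Igfbp5-low range, against 97.7 CPM in deletion and 99.0 CPM in control cells of the Igfbp5-high range. Fst, the activin and BMP antagonist follistatin, was at 332 CPM in deletion and 475 CPM in control cells of the Igfbp5-low range, against 35.4 CPM in deletion and 51.0 CPM in control cells of the Igfbp5-high range.

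**Figure D2:**
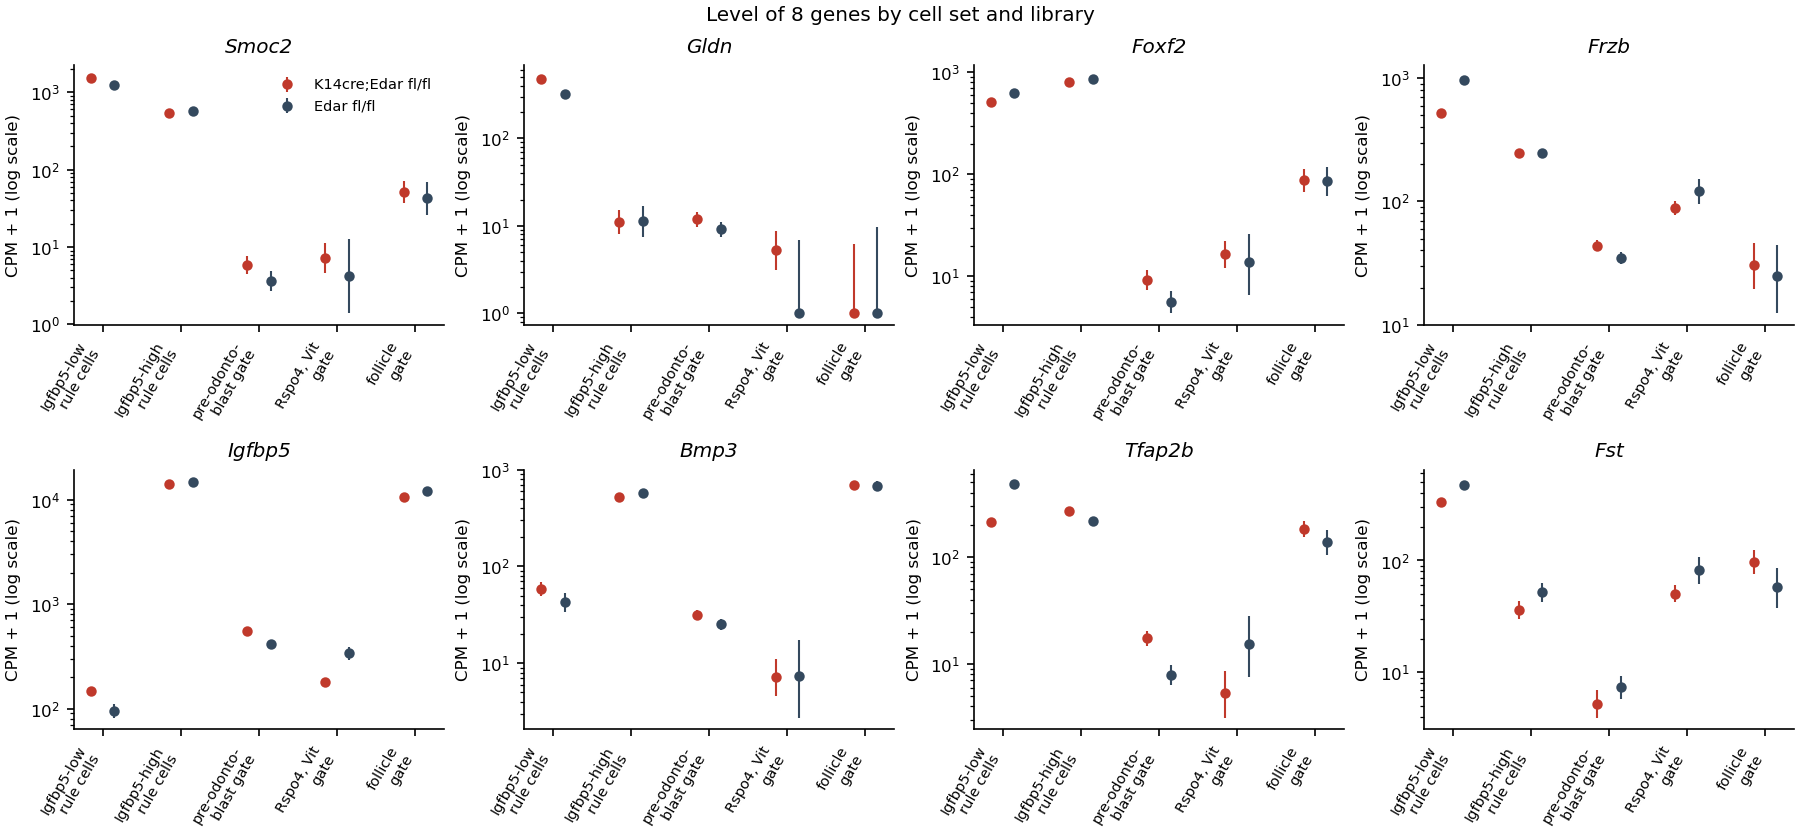
CPM plus 1 (vertical axes, log scale) of 8 genes in Igfbp5-low and Igfbp5-high rule cells and in the pre-odontoblast, Rspo4 and Vit, and follicle gates (horizontal axes), each with K14cre;Edar fl/fl left of Edar fl/fl and bars for exact 95% Poisson intervals. Smoc2 and Foxf2 are high in both ranges of rule cells, Gldn and Fst in the Igfbp5-low range, and Igfbp5 and Bmp3 in the Igfbp5-high range and the follicle gate. Smoc2, Gldn, Foxf2, Frzb, Igfbp5 and Bmp3 were used to choose or divide these sets, so their levels are a description.

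Clustering of the rule cells of both libraries together, with no correction for library, gave 8 sub-clusters, here called by their leading genes. The Upp1 sub-cluster (Upp1, Pcp4l1, Sema3e, Nnat) was 97.4% Igfbp5-low in deletion and 98.8% in control, and the Pappa sub-cluster (Pappa, Gabrg3, Crabp1, Lypd1) 96.2% in deletion and 99.5% in control. These sub-clusters carried the highest Gldn, at 966 CPM in deletion and 678 CPM in control cells of the Upp1 sub-cluster and 682 CPM in deletion and 287 CPM in control cells of the Pappa sub-cluster. Lhx6 in the Upp1 sub-cluster was at 977 CPM in deletion and 979 CPM in control cells. The Acta2 sub-cluster (Acta2, which encodes smooth muscle actin, Moxd1, Scara5) was nearly all Igfbp5-high, with 1.35% Igfbp5-low cells in deletion and 2.06% in control. The Pappa2 sub-cluster (Pappa2, Cyp26b1, S100a4, Tnn) held 31.7% Igfbp5-low cells in deletion and 23.1% in control, and it was rich in Postn, the matrix protein periostin, at 3889.5 CPM in deletion and 4854 CPM in control cells. The Epha3 sub-cluster (Epha3, Wif1, Tbx3os1, Col26a1) had Wif1, a secreted Wnt inhibitor, at 2054 CPM in deletion and 1742 CPM in control cells. Other sub-clusters were led by the mitotic genes Cenpf and Ube2c, by Agtr2, Dlk1 and Rgs5, and by the keratins Krt15 and Krt5, the last of them with 15 deletion and 6 control cells.

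The makeup by sub-cluster differed between the libraries. With no correction for library, a shift over all cells of 1 library can move cells between sub-clusters, and the intervals do not cover this. The Pappa2 sub-cluster made up 24.5% of deletion and 13.0% of control rule cells, a difference of 11.6 percentage points (7.30 to 15.7, from the bounds of the 2 exact 95% binomial intervals). The Upp1 sub-cluster made up 4.63% of deletion and 16.6% of control rule cells, a difference of -11.9 points (-15.3 to -8.55). The Epha3 sub-cluster made up 10.0% of deletion and 17.0% of control rule cells, a difference of -7.01 points (-10.9 to -3.19). The mitotic sub-cluster, at 8.91% of deletion and 7.68% of control cells (difference -1.91 to 4.27 points), and the Acta2 sub-cluster, at 22.0% of deletion and 19.3% of control cells (-1.90 to 7.10 points), did not differ beyond counting error. In these 5 sub-clusters 0 of the 10 leading genes differed 2-fold between the libraries. Those genes were picked for their level over both libraries, so this count is no check that the sub-clusters match. Other genes were called within them, 119 higher and 96 lower of 4247 in the Upp1 sub-cluster. The counts were 55 and 8 of 3330 in the Pappa2, 32 and 27 of 3755 in the Epha3, 57 and 35 of 3823 in the mitotic and 15 and 3 of 3637 in the Acta2 sub-cluster. The other 3 sub-clusters had leading genes past 2-fold: Wfikkn2 and Ecel1 (Pappa-led), Mmp9 and Ccn3 (Agtr2-led) or Krt15 (keratin-led). Their shares, given as a description, were 26.9% of deletion and 21.5% of control rule cells for the Pappa sub-cluster (difference 0.60 to 10.1 points). The Agtr2-led one held 2.08% of deletion and 4.29% of control cells (-4.28 to -0.24 points), and the keratin-led one 0.89% of deletion and 0.60% of control cells (-0.80 to 1.25 points). The Igfbp5-low cells of the libraries also came from different sub-clusters: 76 of 757 in deletion and 164 of 512 in control were of the Upp1 sub-cluster, 131 in deletion and 30 in control of the Pappa2 sub-cluster, and 436 in deletion and 215 in control of the Pappa sub-cluster. The part of this makeup in the Igfbp5-low values given further on, for Dlx1, Crabp1, Tfap2b, Npnt and the collagens among others, was not tested. The share of Igfbp5-low cells differed by -6.07 points (-11.6 to -0.51) between deletion and control. Cells with at least 2000 UMIs were also thinned to 2000 and the rule was applied anew, which gave 1349 deletion and 947 control cells. Of these, 50.9% in deletion and 60.8% in control were Igfbp5-low, a difference of -9.90 points (-15.7 to -4.01). They are not the same cells as at full depth, so the 2 differences do not compare like with like.

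**Figure D3:**
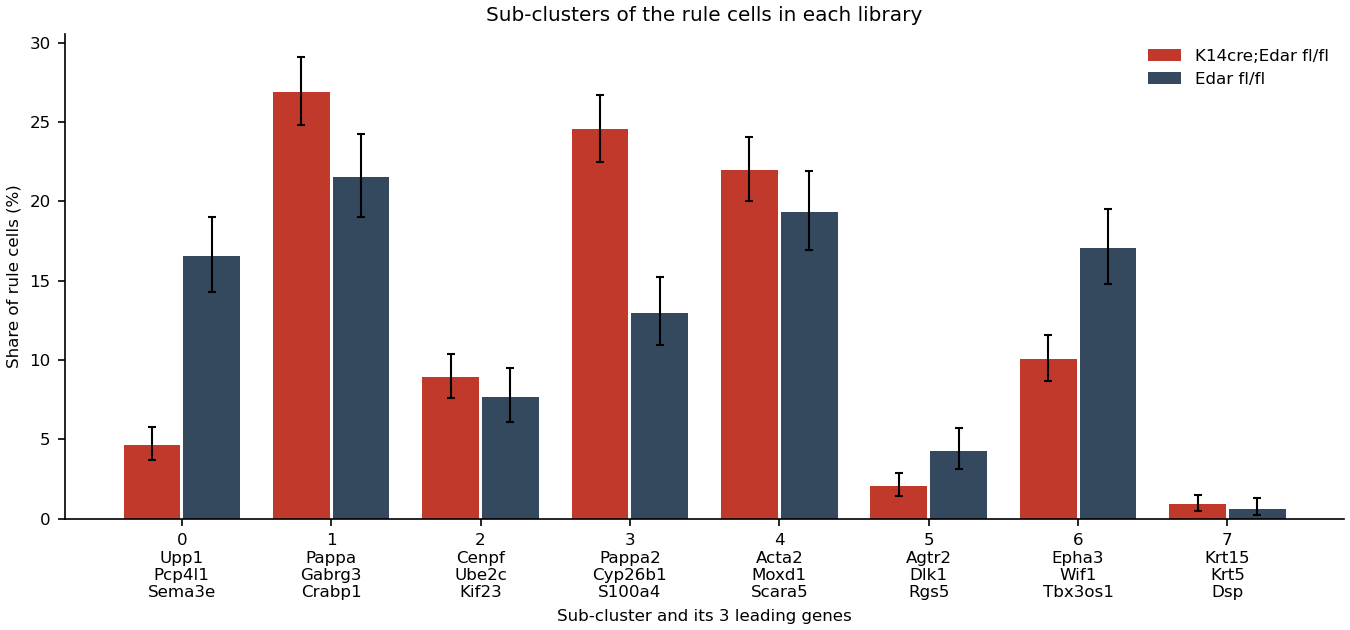
Share of rule cells (%, vertical axis) in each of the 8 sub-clusters (horizontal axis, with their 3 leading genes), K14cre;Edar fl/fl left of Edar fl/fl, with exact 95% binomial intervals. The Pappa2 sub-cluster was larger in K14cre;Edar fl/fl (24.5% against 13.0%) and the Upp1 sub-cluster smaller (4.63% against 16.6%).

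Rule cells were a larger share of the deletion library, at 10.9% of its kept cells (10.4 to 11.4), against 7.47% (7.03 to 7.93) in the control library, a difference of 3.40 points (2.46 to 4.34). Among mesenchymal cells below the limit on Dspp and Dmp1, the odontoblast matrix genes, the shares were 14.05% in deletion and 11.6% in control, a difference of 2.49 points (1.18 to 3.79). Thinned to 2000 UMIs, they were 12.2% in deletion and 10.7% in control, a difference of 1.45 points (0.18 to 2.71). With at least 5 marker UMIs in place of 3 they were 8.45% in deletion and 8.18% in control, a difference of 0.27 points that was within counting error (-0.82 to 1.35). It was also within counting error when Smoc2 was left out of the rule (0.79 points, -0.38 to 1.95) and when Foxf2 was (0.75 points, -0.34 to 1.82). With 1 library each, the genotype and the library cannot be told apart in these shares. Dividing cells, with 2 or more UMIs of G2/M genes, were 24.6% of deletion and 25.5% of control rule cells (difference -5.78 to 3.88 points), and 15.9% of deletion and 16.05% of control cells after thinning.

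Few genes differed at least 2-fold between the libraries in the rule cells as a whole. With the UMIs of the rule cells summed per library, 3630 genes reached 50 CPM in either library. Of these, 6 (0.165%) were at least 2-fold higher in deletion on the CPM plus 5 scale, with a 95% interval of the count ratio that excluded 1, and 4 (0.11%) were as much lower, 10 in all (0.275%). At 1.5-fold, 81 (2.23%) were higher and 24 (0.661%) lower, 105 in all (2.89%). Among the 6 were Amelx, Tnfaip6, Pappa2, Rgcc and Trib1, and the 4 were Agtr2, Dlk1, Dkk1 and Nnat. "Higher" and "lower" below refer to deletion against control in these libraries.

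Tnfaip6 encodes the hyaluronan-binding protein TSG-6, which inflammatory signals induce. It was at 251 CPM in deletion and 105 CPM in control rule cells (log2 ratio 1.22, count ratio 2.14 to 2.68). With each sub-cluster given the same weight in both libraries (equal sub-cluster weights), the log2 ratio was 0.89, below 2-fold. It was at 169 CPM in deletion and 58.2 CPM in control Igfbp5-low cells and at 307 CPM in deletion and 145 CPM in control Igfbp5-high cells. Tnfaip6 was most abundant in the Pappa2 sub-cluster, at 562 CPM in deletion and 244 CPM in control cells. In the Acta2 sub-cluster it was at 214 CPM in deletion and 107 CPM in control cells, and in the follicle gate, outside the rule cells, at 329 CPM in deletion and 376 CPM in control cells, where it was not higher in deletion. Trib1, a pseudokinase that binds C/EBP factors, was at 122 CPM in deletion and 58.5 CPM in control rule cells (log2 ratio 1.00). It was below 2-fold after thinning (0.93), with equal sub-cluster weights (0.98) and in Igfbp5-low cells (0.50), and above it in Igfbp5-high cells (1.22). Rgcc, a regulator of the cell cycle, was at 103 CPM in deletion and 45.1 CPM in control rule cells (log2 ratio 1.11). The log2 ratio of Rgcc was 0.66 with equal sub-cluster weights, 0.87 after thinning and 0.87 in Igfbp5-high cells, all below 2-fold.

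Pappa2, a metalloprotease that cleaves Igfbp3 and Igfbp5 and so frees insulin-like growth factor, was at 604 CPM in deletion and 265 CPM in control rule cells (log2 ratio 1.18, count ratio 2.13 to 2.45). Within the sub-cluster it leads, the levels were closer, at 2015 CPM in deletion and 1629 CPM in control cells. With equal sub-cluster weights, its log2 ratio was 0.32. Pappa2 itself leads that sub-cluster, which was found from these same cells. The part of the larger share of the sub-cluster in the Pappa2 difference was not tested. Pappa2 was also at 1137 CPM in deletion and 490.0 CPM in control cells of the follicle gate and at 74.4 CPM in deletion and 19.2 CPM in control cells of the pre-odontoblast gate. Its substrate Igfbp5 was at 8479 CPM in deletion and 7952 CPM in control rule cells, and Igfbp2, another binding protein, at 65.4 CPM in deletion and 35.2 CPM in control rule cells. Of 15 measured genes of the insulin-like growth factor axis, Pappa2 and Igfbp2 were past 1.5-fold, both higher, and the median log2 ratio of the 15 was 0.06.

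Amelx, the enamel matrix protein amelogenin of ameloblasts, had 423 UMIs in deletion and 84 UMIs in control cells of the rule (deletion 75.2 CPM, control 22.0 CPM), a log2 ratio of 1.57. It was at 28.8 CPM in deletion and 21.5 CPM in control Igfbp5-low cells (log2 ratio 0.35) and at 107 CPM in deletion and 22.6 CPM in control Igfbp5-high cells (2.02). In epithelial cells Amelx stood at 7007 CPM in deletion and 7853 CPM in control, and in the other mesenchymal cells at 350.2 CPM in deletion and 409 CPM in control. By sub-cluster, Amelx was at 231 CPM in deletion and 24.3 CPM in control cells of the Epha3 sub-cluster and at 106 CPM in deletion and 13.0 CPM in control cells of the Pappa2 sub-cluster, but at 16.8 CPM in deletion and 16.6 CPM in control cells of the mitotic sub-cluster. The 12 epithelial markers, Amelx among them, are given above. Of 7 that were measured and outside the rule, 3 lay above 0 (median log2 ratio -0.03), Amelx among them. Ambn, the most abundant, was at 119 CPM in deletion and 135 CPM in control rule cells. The part of epithelial RNA in the Amelx difference was not tested.

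The genes that were lower differed in where they were lower. Dkk1, a secreted Wnt antagonist, was at 19.9 CPM in deletion and 52.2 CPM in control rule cells (log2 ratio -1.20, count ratio 0.30 to 0.48). With equal sub-cluster weights its log2 ratio was -0.89, and 0 genes were then past 2-fold lower. Its UMIs lay mostly in the Igfbp5-low cells, at 42.8 CPM in deletion and 102 CPM in control, and it was at 59.7 CPM in deletion and 175 CPM in control cells of the Upp1 sub-cluster and at 62.2 CPM in deletion and 118 CPM in control cells of the Pappa sub-cluster. Sostdc1, a secreted antagonist of BMP and Wnt signals, was at 597 CPM in deletion and 1065 CPM in control rule cells (log2 ratio -0.83). It was at 685 CPM in deletion and 1346 CPM in control Igfbp5-low cells and at 536 CPM in deletion and 821 CPM in control Igfbp5-high cells, lower in both. In the Epha3 sub-cluster, where it was highest, Sostdc1 was at 1384 CPM in deletion and 2334 CPM in control cells. In the epithelial cells, which also express it, it was at 474 CPM in deletion and 469.6 CPM in control. The log2 ratio of Sostdc1 was -1.21 in cells with Y-linked UMIs and no Xist, and -0.19 in cells with Xist and no Y-linked UMI.

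Nnat, an imprinted gene for the membrane proteolipid neuronatin, was at 56.2 CPM in deletion and 123 CPM in control rule cells (log2 ratio -1.07), but at 559 CPM in deletion and 619 CPM in control cells of the Upp1 sub-cluster, which it helps to define. Dlk1, an imprinted non-canonical Notch ligand, was at 78.7 CPM in deletion and 228 CPM in control rule cells (log2 ratio -1.48), and Agtr2, an angiotensin II receptor, at 14.6 CPM in deletion and 53.3 CPM in control rule cells (log2 ratio -1.57). The small sub-cluster that both lead, of 35 deletion and 43 control cells, held 213 of 443 Dlk1 UMIs in deletion and 665 of 869 in control, and 57 of 82 Agtr2 UMIs in deletion and 170 of 203 in control. Without it and the keratin-led sub-cluster the log2 ratio of Dlk1 was -0.41 and that of Agtr2 -0.57. In cells with Xist and no Y-linked UMI, Agtr2 had a log2 ratio of 0.88 and Dlk1 of -0.09.

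**Figure D4:**
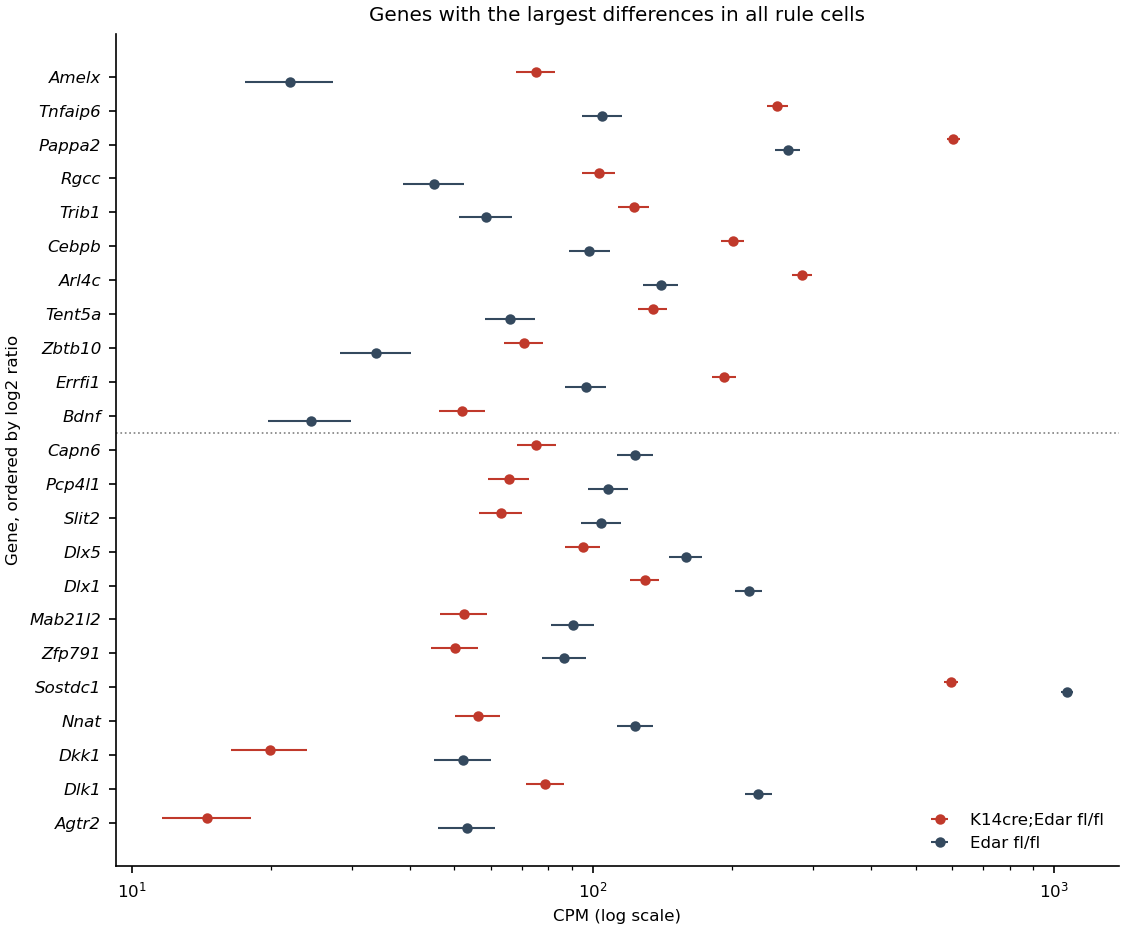
CPM (horizontal axis, log scale) of 11 genes with the highest and 12 with the lowest log2 ratio in all rule cells (vertical axis), K14cre;Edar fl/fl and Edar fl/fl, with exact 95% Poisson intervals and a dotted line between the genes that were higher and lower. Tnfaip6 stood at 251 CPM in K14cre;Edar fl/fl against 105 CPM in Edar fl/fl, and Sostdc1 at 597 CPM against 1065 CPM.

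The homeobox genes of the Dlx family, which pattern the jaw and its mesenchyme, were lower in part. Dlx1 was at 129 CPM in deletion and 217 CPM in control rule cells (log2 ratio -0.73), Dlx5 at 94.9 CPM in deletion and 159 CPM in control (-0.71) and Dlx3 at 121 CPM in deletion and 185 CPM in control (-0.59). Dlx1 was at 156 CPM in deletion and 321 CPM in control Igfbp5-low cells, and at 111 CPM in deletion and 127 CPM in control Igfbp5-high cells. With equal sub-cluster weights the log2 ratios were -0.32 for Dlx1, -0.53 for Dlx5 and -0.19 for Dlx3. Of 37 measured dental transcription factors, 13 lay above 0 and the median log2 ratio was -0.12. Those past 1.5-fold were Dlx1, Dlx3 and Dlx5, all lower, and Sox11, an SRY-box factor of progenitor cells, higher, at 354 CPM in deletion and 222 CPM in control. Over all 10806 genes with at least 5 CPM, 42.2% lay above 0 and the median was -0.04.

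Immediate early genes, which are transcribed within minutes of a stimulus, were higher. Of 26 measured, 25 lay above 0, the median log2 ratio was 0.52, and 11 were past 1.5-fold higher and 0 lower (all genes tested: 2.23% higher, 0.661% lower, 2.89% in all). Nr4a2, an orphan nuclear receptor, was at 306 CPM in deletion and 162 CPM in control rule cells, and Csrnp1, a nuclear factor, at 428 CPM in deletion and 222 CPM in control. The AP-1 subunit Fosb was at 2915 CPM in deletion and 1893 CPM in control, Jund at 1357 CPM in deletion and 805 CPM in control, and Zfp36, which destabilises cytokine messages, at 1334 CPM in deletion and 763 CPM in control. The median was 0.53 in Igfbp5-low cells, with 11 past 1.5-fold higher and 0 lower (all genes tested there: 3.39% higher, 2.46% lower, 5.84% in all). It was 0.46 in Igfbp5-high cells, with 10 higher and 1 lower (all genes tested there: 2.62% higher, 0.733% lower, 3.35% in all). Jund was higher outside the rule cells as well, at 1114 CPM in deletion and 777 CPM in control cells among the other mesenchyme, 630.2 CPM in deletion and 423 CPM in control epithelial cells and 853 CPM in deletion and 529 CPM in control endothelial cells, while Fosb was at 952 CPM in deletion and 1106 CPM in control leukocytes.

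Stress and chemokine genes were counted in the same cells. Of 17 measured stress and chemokine genes, 14 lay above 0 (median 0.50). Of the 12 that reached 50 CPM, 7 were past 1.5-fold, all higher (all genes tested: 2.23% higher, 0.661% lower, 2.89% in all). The transcription factor gene Cebpb was at 201 CPM in deletion and 98.1 CPM in control rule cells, the EGF receptor inhibitor Errfi1 at 192 CPM in deletion and 96.3 CPM in control, and the chemokine Cxcl1 at 112 CPM in deletion and 64.0 CPM in control. Of 16 heat shock genes, 15 lay above 0 (median 0.27), with the co-chaperone Bag3 alone past 1.5-fold, at 298 CPM in deletion and 176 CPM in control. The labels do not give the number of dissociations per library, and handling and genotype cannot be told apart.

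**Figure D5:**
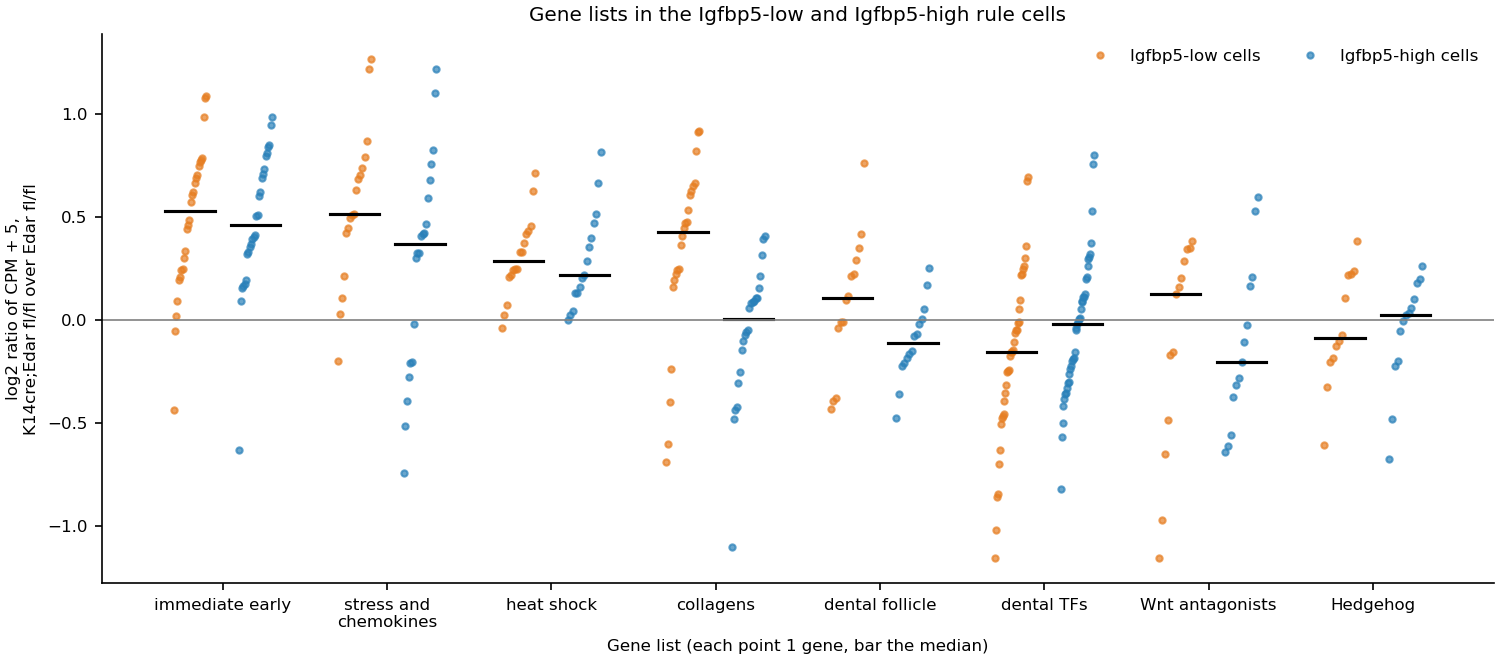
Log2 ratio of CPM plus 5, K14cre;Edar fl/fl over Edar fl/fl (vertical axis), of each measured gene of 8 lists (horizontal axis) in Igfbp5-low cells (orange) and Igfbp5-high cells (blue), with bars at the medians. Immediate early genes lie mostly above 0 in both (medians 0.53 and 0.46), while the medians of collagens are 0.43 in Igfbp5-low cells and 0.01 in Igfbp5-high cells.

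Matrix genes were also counted within each Igfbp5 range. Over all genes, more were past 1.5-fold in Igfbp5-low cells (5.84%) than in Igfbp5-high cells (3.35%), and a difference between the ranges was not tested. In Igfbp5-low cells 20 genes (0.534% of 3747) were past 2-fold higher and 14 (0.374%) lower, 0.907% in all, and in Igfbp5-high cells 11 (0.31% of 3549) were higher and 4 (0.113%) lower, 0.423% in all. Of 22 collagens, 18 lay above 0 in Igfbp5-low cells with a median log2 ratio of 0.43, while 42.4% of all 11162 genes with at least 5 CPM lay above 0 there. At 1.5-fold 6 collagens were higher and 2 lower (all genes tested there: 3.39% higher, 2.46% lower). Col1a1, the main chain of type I collagen, was at 17627 CPM in deletion and 11226 CPM in control Igfbp5-low cells, and at 24154 CPM in deletion and 22670.3 CPM in control Igfbp5-high cells. In the Igfbp5-high cells the median of the 22 was 0.01. The integrin ligand nephronectin, Npnt, was at 262 CPM in deletion and 103 CPM in control Igfbp5-low cells, and the matrix protein fibulin 2, Fbln2, at 521 CPM in deletion and 304 CPM in control. C1qtnf3, a secreted protein with a C1q domain, was at 384 CPM in deletion and 116 CPM in control Igfbp5-low cells, and 1770 of its 1985 UMIs in deletion and 515 of its 689 in control rule cells lay in the Pappa2 sub-cluster, at 1126 CPM in deletion and 953 CPM in control cells. Tfap2b, an AP-2 factor of neural crest derivatives, was at 211 CPM in deletion and 477 CPM in control Igfbp5-low cells, and at 268 CPM in deletion and 216 CPM in control Igfbp5-high cells. In the rule cells as a whole, 1 of 22 collagens was past 1.5-fold, Col16a1, at 141 CPM in deletion and 90.3 CPM in control.

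The signalling lists had small medians and few calls in the rule cells as a whole. A call needed 50 CPM in 1 library, which not every measured gene reached. Of 13 Hedgehog genes, 6 lay above 0 (median -0.03). The receptor and target Ptch1 was at 781 CPM in deletion and 816 CPM in control rule cells, the target Gli1 at 199 CPM in deletion and 197 CPM in control, and the Hedgehog-binding protein Hhip at 465 CPM in deletion and 430.1 CPM in control. Of 25 Wnt ligands, receptors and response genes, 16 lay above 0 (median 0.08). Of the 13 that reached 50 CPM, 0 were past 1.5-fold, with the ligand Wnt5a at 645 CPM in deletion and 461 CPM in control. Of 13 Wnt antagonists, Dkk1 and Sostdc1 were past 1.5-fold, both lower (median -0.04), and Sfrp1, another secreted antagonist, was at 960.1 CPM in deletion and 990.1 CPM in control.

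Of 38 BMP and TGF-beta genes, 22 lay above 0 (median 0.08). Those past 1.5-fold were the inhibitory Smad7, at 149 CPM in deletion and 87.9 CPM in control rule cells, the BMP target Id4, at 82.8 CPM in deletion and 129 CPM in control, and Fst, at 156 CPM in deletion and 248 CPM in control. Fst was higher in deletion inside the Upp1 sub-cluster, at 1633 CPM in deletion and 1284 CPM in control cells, and had a log2 ratio of 0.28 with equal sub-cluster weights. Of 16 FGF genes 7 lay above 0 (median -0.04), and 0 of the 6 that reached 50 CPM were past 1.5-fold. Of 13 measured genes of the Edar pathway, 11 lay above 0 (median 0.13). Only 4 of them reached the 50 CPM needed for a call, and 0 were past 1.5-fold. The NF-kB inhibitor Nfkbia was at 422 CPM in deletion and 301 CPM in control.

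Of 14 retinoic acid genes, 7 lay above 0 (median -0.01) and the 2 past 1.5-fold were both higher. Crabp1, a retinoic acid-binding protein of the cytoplasm, was at 458 CPM in deletion and 222 CPM in control Igfbp5-low cells, and at 34.2 CPM in deletion and 39.2 CPM in control Igfbp5-high cells. Among cells with Xist and no Y-linked UMI the log2 ratio of Crabp1 was -0.78, and among cells with Y-linked UMIs and no Xist it was 1.18. Cyp26b1, which breaks retinoic acid down, was at 194 CPM in deletion and 121 CPM in control rule cells, and its log2 ratio was -0.14 once sub-clusters had equal weights. Of 29 axon guidance and neurotrophic genes, 12 lay above 0 (median -0.02). The neurotrophin Bdnf was at 52.1 CPM in deletion and 24.4 CPM in control, and the guidance ligand Slit2 at 63.1 CPM in deletion and 104 CPM in control.

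The other lists gave few calls. Of 34 matrix glycoproteins 23 lay above 0 (median 0.09), with Fbln2, Npnt and Frem2 past 1.5-fold higher and Thbs1 lower, and of 20 proteases and inhibitors 13 (median 0.11), with 2 higher, Adamts1 among them. Of 10 Notch genes 6 lay above 0 (median 0.05), with Dlk1 lower, and of 10 papilla zone genes 5 (median 0.01), with Nnat lower. Of 23 hypoxia and glycolysis genes 12 lay above 0 (median 0.01), with Vegfa and Ndrg1 higher, and of 25 G2/M genes 18 (median 0.17), with Ube2c higher. Of 14 dental follicle genes 8 lay above 0 (median 0.02), of 26 S phase genes 15 (median 0.12), of 9 leucine-rich proteoglycans 6 (median 0.15) and of 8 dentin and mineral genes 5 (median 0.11). Of 13 interferon genes 6 lay above 0 (median -0.02), of 17 apoptosis genes 7 (median -0.01), of 94 ribosomal protein genes 23 (median -0.05) and of 13 mitochondrial transcripts 1 (median -0.17). In these last 8 lists 0 genes were past 1.5-fold, but a call needed 50 CPM in 1 library. That level was reached by 12 dental follicle, 8 S phase, 6 proteoglycan and 5 dentin and mineral genes. It was also reached by 5 interferon, 7 apoptosis, 82 ribosomal protein and 11 mitochondrial genes.

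The rule cells were then set against 3 other mesenchymal cell sets of the same libraries, with edgeR's quasi-likelihood test on UMIs summed per library and cell set and the library as a block. Genes of the rules were left out. Both sets of cells were chosen by genes measured in the same cells, and each comparison had 1 residual degree of freedom, so the p-values are too small and the calls describe the difference. Against 1748 deletion and 1603 control pre-odontoblast cells, 3120 of 12912 genes (24.2%) were higher in the rule cells and 3061 (23.7%) lower at an adjusted p under 0.05 (Benjamini-Hochberg). Fst had a log2 fold change of 5.07 ± 0.13 (SE, edgeR adjusted p = 1.15e-07), at 156 CPM in deletion and 248 CPM in control rule cells, against 4.28 CPM in deletion and 6.37 CPM in control pre-odontoblast cells. Col8a1 (5.03 ± 0.15), Foxq1 (4.97 ± 0.15), Alcam (4.72 ± 0.19), the chemokine Cxcl12 (4.66 ± 0.20), Tfap2b (4.52 ± 0.29) and Igfbp3 (4.51 ± 0.11) were also higher.

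Plac8 had a log2 fold change of -6.30 ± 0.09 (edgeR adjusted p = 6.97e-09), at 26.5 CPM in deletion and 27.6 CPM in control rule cells, against 1852 CPM in deletion and 1976 CPM in control pre-odontoblast cells. Ifitm5 (-5.43 ± 0.18) and osteocalcin, Bglap (-5.23 ± 0.18), genes of mineralising cells, the sphingomyelin synthase Sgms2 (-4.93 ± 0.18) and the secretory pathway pseudokinase Fam20a (-4.42 ± 0.20) were lower too. Of 15 insulin-like growth factor genes 14 were higher in the rule cells and 0 lower, of 13 Hedgehog genes 11 were higher and 1 lower, and of 38 BMP and TGF-beta genes 25 were higher and 8 lower. Of 19 FGF genes 4 were higher and 10 lower, and of 11 dentin and mineral genes 1 was higher and 10 lower.

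Against 721 deletion and 159 control cells of the Rspo4 and Vit gate, 1965 of 11922 genes (16.5%) were higher and 1414 (11.9%) lower. Igfbp5 had a log2 fold change of 5.28 ± 0.07, at 8479 CPM in deletion and 7952 CPM in control rule cells, against 177 CPM in deletion and 336 CPM in control Rspo4 and Vit cells. C1qtnf3 (5.88 ± 0.23), Tfap2b (5.52 ± 0.21) and Pappa2 (5.52 ± 0.18) were higher too. The actin-severing protein gene Scin (-5.45 ± 0.19), the transmembrane collagen Col25a1 (-3.90 ± 0.19) and the vitamin D receptor Vdr (-3.23 ± 0.21) were lower. Of 26 immediate early genes 25 were higher in the rule cells and 0 lower, and of 13 Wnt antagonists 12 were higher and 1 lower.

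Against 208 deletion and 105 control cells of the follicle gate, 368 of 10986 genes (3.35%) were higher and 680 (6.19%) lower. This gate holds fewer cells than the others. Dlx3 (4.39 ± 0.33), the Ly6 family gene Lypd1 (4.13 ± 0.37), Dlx5 (2.82 ± 0.28) and Sostdc1 (2.12 ± 0.15) were higher in the rule cells. Sostdc1 was at 597 CPM in deletion and 1065 CPM in control rule cells, against 182 CPM in deletion and 135 CPM in control follicle cells. The matricellular gene Ccn3 (-5.48 ± 0.22), the surface antigen gene Ly6a (-4.56 ± 0.20), the microfibril gene Mfap5 (-4.55 ± 0.17), Dlk1 (-3.55 ± 0.13) and the elastin gene Eln (-3.30 ± 0.13) were lower. Of 37 dental transcription factors 15 were higher in the rule cells and 7 lower, of 22 collagens 3 were higher and 14 lower, and of 34 matrix glycoproteins 4 were higher and 17 lower. In this comparison and in that with the Rspo4 and Vit cells, edgeR took the spread of every gene from the trend, so no p is printed.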

How the data were processed

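The deposited tables hold UMI counts per gene and cell, 1 table per library. Per the submitters' processing notes the authors used STARsolo and the mm10 build, while annotation and settings were not stated. Per the labels' protocols the tissue was digested with collagenases and Dispase, red cells were lysed and dead cells removed. Members, gene lists and alternatives were chosen with earlier results of these data known.

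Counts were summed over the cells of a set and scaled to CPM. A call between libraries needed 50 CPM in at least 1 of them, a ratio of CPM plus 5 beyond 2-fold or 1.5-fold, and a conditional binomial 95% interval without 1. List counts and medians take genes of 5 CPM or more in 1 library and leave out rule genes. Named genes are the 12 highest and 12 lowest calls, list members past 1.5-fold with the 3 most abundant, the 15 leading genes, and the 8 highest and 8 lowest edgeR calls of 100 CPM or more; other genes were named after their values were seen, and some genes are counted but not reported here by name. Sub-clusters used 1500 variable genes, 20 components, 15 neighbours and a resolution of 0.5, on both libraries together. The library was used to pick the variable genes and was not corrected for. Scrublet called 243 deletion and 176 control doublets, among them 9 deletion and 2 control rule cells, which were kept and left out in an alternative. Thinning to 2000 UMIs left out 189 deletion and 63 control rule cells with fewer UMIs, and the rule was then applied anew to the thinned counts. Tools were Python 3.11.15, scanpy 1.11.5, R 4.3.3, edgeR 4.0.16 (TMM, filterByExpr) and DESeq2 1.42.0, checked on simulated data. Alternatives covered the cell filters, marker threshold, depth, pseudocount, minimum level, scaling, doublets, sex-linked UMIs and cycling cells. The alternatives by Igfbp5 range and by sub-cluster were chosen after seeing the data.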

Additional observations from a re-analysis of the deposited data

How the results depend on the processing

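With 1 library per genotype, leaving a library out gives no value for K14cre;Edar fl/fl against Edar fl/fl, and depth limits genes under about 50 CPM. No paired analysis was possible because each genotype has a single library; in the comparisons of cell sets the library was the block. Without the replicate block the pre-odontoblast comparison called 2954 higher and 2878 lower, the Rspo4 and Vit comparison 1407 higher and 910 lower, and the follicle comparison 152 higher and 286 lower. DESeq2 called 1734 higher and 1729 lower against pre-odontoblast cells, 632 and 377 against Rspo4 and Vit cells, and 48 and 165 against follicle cells. Thinned to 2000 UMIs, the Rspo4 and Vit comparison called 1294 higher and 891 lower.

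The difference in the share of rule cells (3.40 points) was 2.38 after thinning, 4.81 with at least 2 marker UMIs, 1.25 with at least 5, 4.49 with at least 1000 genes and at most 10% mitochondrial UMIs, 1.81 with Smoc2 left out of the rule and 1.59 with Foxf2 left out.

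The count of genes past 2-fold higher (6) was 10 with at least 5 marker UMIs, 12 with a pseudocount of 1 CPM, 3 with 20 CPM, 57 in cells with Xist only, 30 in cells with Y-linked UMIs only, 13 in cells with fewer than 2 G2 and M phase UMIs, 20 in Igfbp5-low and 11 in Igfbp5-high cells, 12 without the sub-clusters led by keratins and by Agtr2, and 3 with equal sub-cluster weights. In the same settings the count lower (4) was 2 with at least 5 marker UMIs, 2 with 20 CPM, 24 with Xist only, 10 with Y-linked only, 14 in Igfbp5-low cells, 2 without those sub-clusters and 0 with equal weights, and it was 14 with no minimum level. The count past 1.5-fold higher (81) was 53 with 20 CPM, 195 with no minimum, 206 with Xist only, 133 with Y-linked only and 127 in Igfbp5-low cells. The count past 1.5-fold lower (24) was 37 with at least 5 marker UMIs, 44 thinned, 11 with 20 CPM, 210 with no minimum, 167 with Xist only, 97 with Y-linked only, 38 with fewer than 2 G2 and M phase UMIs, 92 in Igfbp5-low cells and 8 with equal weights. Subsets hold fewer UMIs, and the cause of these changes was not tested.

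Directions reversed for Agtr2 (0.88), Crabp1 (-0.78) and Xist (-0.12) in cells with Xist only, for Nnat (0.25), Pcp4l1 (0.20) and Crabp1 (-0.18) in Igfbp5-high cells, for Pcp4l1 (0.32), Fst (0.28) and Cyp26b1 (-0.14) with equal sub-cluster weights, and for Ube2c (-0.14) in cells with fewer than 2 G2 and M phase UMIs. Of 147 named gene results, 8 reversed in a setting and 39 kept their direction and call in all settings run. Median-ratio scaling shifted all genes by 0.016 on the log2 scale.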
